A study of Mus musculus with 17 samples.

Results

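The comparison asked which genes differed between adult hepatic progenitor cells that had been differentiated in vitro toward hepatocytes (the hepatocyte condition, 4 arrays) and undifferentiated adult hepatic progenitor cells (4 arrays). The sample labels alone put these 8 of the 17 arrays of the series into their groups, and no measured value was used to choose them. Mice of both groups were Foxl1-CRE; RosaYFP and 6 to 10 weeks old. In such mice Cre made under the control of Foxl1 switches on a yellow fluorescent reporter, so that cells that have used Foxl1, and their descendants, are marked. The cholangiocyte condition (3 arrays), the same progenitors differentiated in vitro toward bile duct cells, served as a second culture for comparison, and primary hepatocytes (4 arrays) as a reference for levels. The labels give no medium, growth factor or time for either culture and leave unstated whether the arrays within a group are separate animals or cultures. The p-values therefore measure the spread between these samples, which may be technical.

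Hepatocytes make most plasma proteins, and many of these, the acute-phase proteins, are induced when cytokines of the IL-6 family bind receptors that share the gp130 chain and activate the transcription factor STAT3. Interferons act through their receptors and JAK kinases on a set of antiviral and antigen-presentation genes, many of which carry an interferon-stimulated response element near their start. Progenitors that divide use the E2F and FOXM1 programmes of DNA replication and mitosis, which mature hepatocytes have switched off.

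A level is the log2 intensity of a probe minus that of the array's 75th percentile, and a level of one gene cannot be set against that of another, since probes differ in brightness. Differences are log2, hepatocyte condition minus undifferentiated cells, each with its standard error from 1 limma model of the 17 arrays. Rises and falls are calls at p under 0.05 after Benjamini-Hochberg adjustment across 25975 genes, and an adjusted p below comes from that model unless another setting or a left-out array is named beside it. The cholangiocyte condition entered with 3 arrays and each other group named with 4. Of all genes, 1979 (7.62%) rose and 2000 (7.7%) fell, 1395 and 934 of them at least 2-fold, and 7180 had an unadjusted p under 0.05. With each array scaled to its median instead, 1115 rose and 2771 fell, and the median difference of all genes moved from 0.07 to -0.18. The 4 arrays of the hepatocyte condition all lay above the 4 others for 9.57% of genes and all below for 11.4%. Against the cholangiocyte condition, 1811 genes (6.97%) were higher and 2184 (8.41%) lower, the latter 1383 and 1384 without cholangiocyte-condition arrays 1 and 2. On the 8 arrays, 25232 to 28895 probes exceeded background clearly by the flag of the scanner software. Arrays of the hepatocyte condition correlated across genes at a mean r of 0.965, undifferentiated arrays at 0.97, and arrays of different groups at 0.947.

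Of 8 hepatocyte markers, Fgb passed, while Alb, Ttr, Apoa1, Serpina1a, Cps1, Cyp3a11 and the transcription factor gene Hnf4a did not, nor did the factor gene Cebpa. The Hnf4a level was 5.33 in mean in undifferentiated cells and 5.22 in the hepatocyte condition, against 7.05 in primary hepatocytes. The groups overlapped, and Hnf4a differed by -0.11 ± 0.45 (adjusted p = 0.92). Of 35 liver transcription factor genes, 10 rose, against 7.62% of all genes, and 25 did not pass, with a median of 0.51. The 10 became 5 in a fit of the compared groups alone and 6 without undifferentiated array 3. Against the cholangiocyte condition 8 of the 35 were higher, where 6.97% of all genes were. In RNA from whole cultures, fewer cells of a type and less RNA per cell cannot be told apart.

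The plot of 12 genes by array shows the forms that differences took, from groups without overlap to the wide scatter of Alb.

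**Figure D1:**
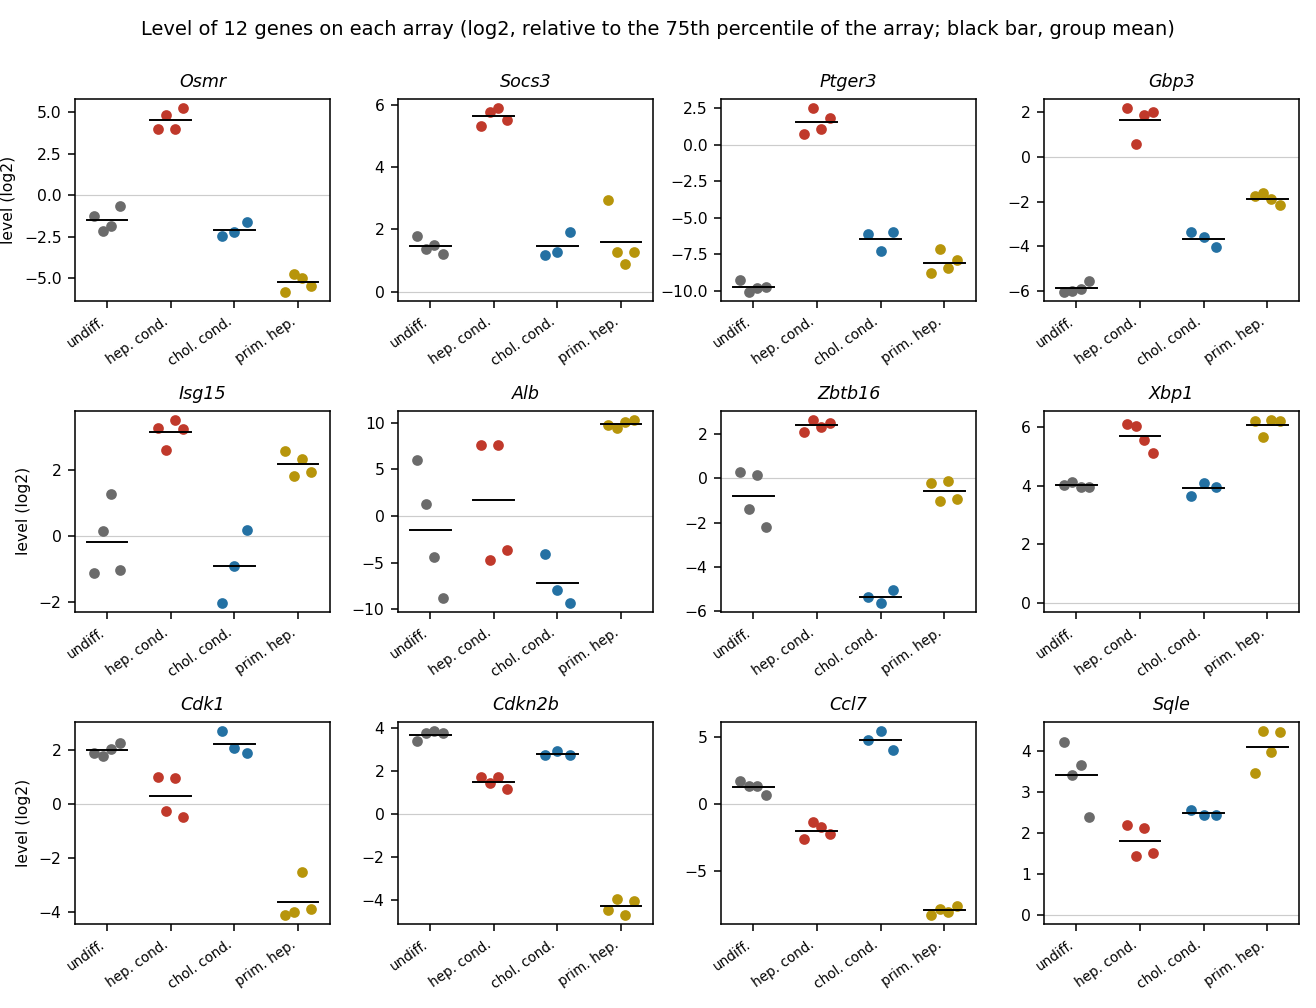
Levels of 12 genes (y axis, log2 relative to each array's 75th percentile) in undifferentiated cells, the hepatocyte condition, the cholangiocyte condition and primary hepatocytes. Each point is 1 array and the black bar is the group mean. In the hepatocyte condition Osmr lies between 4.01 and 5.25, above every undifferentiated array, whereas Alb ranges from -4.76 to 7.62 and overlaps them.

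Many genes of the IL-6 family pathway rose, evenly over the arrays. Of 26 genes tested for receptors, STAT3 and its feedback, 12 rose, against 7.62% of all genes, Lif fell and 13 did not pass. The list median was 1.04, against 0.07 over all genes. The 3 slides that held 1 array of each group set hepatocyte-condition arrays 2, 4 and 1 beside undifferentiated arrays 2, 1 and 3. In that order, here and below, the medians within these shared slides were 0.96, 0.95 and 0.74. The mean level of the list lay between -0.85 and -0.49 on the undifferentiated arrays and between 0.51 and 0.82 in the hepatocyte condition. Against the cholangiocyte condition 10 of the 26 were higher, where 6.97% of all genes were, and 1 lower.

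Osmr, the receptor chain for oncostatin M, was at -1.23, -2.15, -1.85 and -0.64 on undifferentiated arrays 1 to 4 and at 4.01, 4.86, 4.02 and 5.25 in the hepatocyte condition. The groups were far apart and the 4 arrays of each were close. The rise was 6.00 ± 0.39 (adjusted p = 5.47e-07), and Osmr was also higher than in the cholangiocyte condition by 6.63 ± 0.42. In primary hepatocytes Osmr was at -5.26 ± 0.49 (SD, n = 4), below every array of the 3 cultured groups.

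Il6st encodes gp130, the shared signalling chain, and rose from between -0.33 and 0.07 to between 1.45 and 1.87, by 1.79 ± 0.19 (adjusted p = 4.58e-05). Il6ra, the IL-6 binding chain, rose by 1.55 ± 0.34 (adjusted p = 0.00694) and Stat3 itself by 1.59 ± 0.17 (adjusted p = 4.46e-05). The groups did not overlap for any of these 3 genes. Jak1, the kinase bound to gp130, differed by 0.17 ± 0.20 (adjusted p = 0.661).

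Socs3, which encodes the feedback inhibitor of gp130 signalling, was at 1.80, 1.36, 1.49 and 1.22 in undifferentiated cells and at 5.33, 5.78, 5.90 and 5.53 in the hepatocyte condition. Every array of the hepatocyte condition was thus above every undifferentiated one by several log2 units. Its rise was 4.17 ± 0.39 (adjusted p = 1.67e-05), and the difference from the cholangiocyte condition was 4.18 ± 0.42. Cebpd, a C/EBP factor gene induced in the acute phase, rose by 3.66 ± 0.32 (adjusted p = 1.01e-05). Its relative Cebpb differed by 0.13 ± 0.17 (adjusted p = 0.683).

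The ligands moved in different directions. Lif, an IL-6 family cytokine, fell by 1.63 ± 0.39 on the log2 scale (adjusted p = 0.0116). Il6 was well above background on none of the 4 undifferentiated arrays and on 3 of the 4 arrays of the hepatocyte condition, a level at least 5.27-fold higher (adjusted p = 0.0192). That call was lost without undifferentiated array 2 (adjusted p = 0.0555) or 3 (0.0521) and without array 3 of the hepatocyte condition (0.0618). The bound was 3.16-fold without array 3 and 9.05-fold without array 4 of the hepatocyte condition.

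Many secreted acute-phase proteins also rose, unevenly over the arrays. Of 29 tested, 18 rose and 11 did not pass, with a median of 4.07, and 16 were higher than in the cholangiocyte condition. Within the shared slides the medians were 3.36, 0.48 and 6.71. The list's mean level was 2.94, 1.17, 3.68 and -0.63 on arrays 1 to 4 of the hepatocyte condition and between -4.45 and -2.10 on the undifferentiated arrays. Arrays 1 and 3 were the higher and array 4 the lowest of the hepatocyte condition, and the groups did not overlap.

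Serpina3n, an inhibitor of neutrophil proteases, was at -5.35, -6.82, -9.81 and -9.67 in undifferentiated cells and at 5.02, 3.77, 5.84 and 2.50 in the hepatocyte condition. It went from near background, where only 2 arrays were well above it, to a high level on all 4. The rise was 12.20 ± 0.98 (adjusted p = 4.71e-06), and primary hepatocytes were at 3.32 ± 0.54 (SD, n = 4). Its neighbour in the family Serpina3m rose by 9.34 ± 0.97 (adjusted p = 4.47e-05). Members of the Serpina3 and Saa families are near-identical copies, and a probe may not tell them apart.

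Saa2, serum amyloid A, was not well above background in undifferentiated cells and was at 5.47, 2.27, 6.98 and -3.17 in the hepatocyte condition, at least 1290-fold higher (adjusted p = 0.000688). The 4 arrays of the hepatocyte condition spanned a wide range, array 4 being the lowest. The bound was 711-fold, 502-fold and 5240-fold without arrays 1, 3 and 4 of the hepatocyte condition. Crp, C-reactive protein, differed from it in form: it was between -3.92 and -1.94 in undifferentiated cells and between 1.08 and 1.69 in the hepatocyte condition, a rise of 4.35 ± 0.61 (adjusted p = 0.000437). Apcs, the related pentraxin serum amyloid P, rose by 6.09 ± 0.68 (adjusted p = 6.8e-05).

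Hamp, the hormone hepcidin that limits iron export, rose by 8.27 ± 1.28 (adjusted p = 0.000854). Lcn2, the siderophore-binding protein lipocalin, was at 2.53, 2.50, 0.15 and -0.85 in undifferentiated cells and rose to between 5.60 and 7.82, by 5.94 ± 1.12 (adjusted p = 0.0029). Lbp, the lipopolysaccharide-binding protein, rose by 4.30 ± 0.70 (adjusted p = 0.00112). Orm1, orosomucoid, did not pass (3.75 ± 1.87, adjusted p = 0.217). Its 4 values in the hepatocyte condition were 2.13, -3.76, 3.28 and -7.06 and overlapped those of undifferentiated cells. Without array 4 of the hepatocyte condition its adjusted p was 0.0317.

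The lectins Reg3b and Reg3g, antibacterial proteins of gut and pancreas that respond to the same cytokines, were far higher in the hepatocyte condition. Reg3b was at -5.28, -8.77, -9.44 and -9.45 in undifferentiated cells and at 7.41, 5.75, 4.77 and 0.43 in the hepatocyte condition, a difference of 12.82 ± 1.19 (adjusted p = 1.67e-05). Reg3g, well above background on no undifferentiated array, was at 6.58, 4.82, 4.22 and -2.21 in the hepatocyte condition, at least 1790-fold higher (adjusted p = 5.63e-05). Without array 4 of the hepatocyte condition that bound was 6460-fold, and without array 1 it was 847-fold. In primary hepatocytes Reg3b was at -7.75 ± 0.40 and Reg3g, well above background on none of their arrays, at -7.99 ± 0.35 (SD, n = 4). The levels in the hepatocyte condition thus lay far above those of mature cells on every array, and array 4 was again the lowest.

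Ptger3, a receptor for prostaglandin E2, rose evenly too. It was at -9.29, -10.06, -9.83 and -9.72 in undifferentiated cells, not well above background on any array, and at 0.73, 2.50, 1.08 and 1.84 in the hepatocyte condition. The groups were far apart and the values within each were close. It was at least 508-fold higher (adjusted p = 2.18e-09). It was also higher than in the cholangiocyte condition by 8.01 ± 0.47 (adjusted p = 3.51e-07). On no primary hepatocyte array was it well above background (-8.09 ± 0.70, SD, n = 4).

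Many interferon-type genes also rose. Promoters of 6 of them that rose are shown, since they share a response element. The stretches are 120 bases from the region upstream of a transcription start, 5′ to 3′ on the strand of the gene. They end at the start in Gbp2 and Gbp3 and 10, 6, 25 and 60 bases before it in Tgtp2, Isg15, Ifit1 and Rsad2. They come from the RefSeq promoter table of build GRCm38.p6. Capitals mark each match to GAAANNGAAA, a form of the interferon-stimulated response element, on either strand; matches may overlap.
Gbp2, chr3:142620543-142620662, plus strand: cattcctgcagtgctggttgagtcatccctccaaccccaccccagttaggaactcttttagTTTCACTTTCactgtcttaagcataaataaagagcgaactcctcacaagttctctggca
Gbp3, chr3:142559924-142560043, plus strand: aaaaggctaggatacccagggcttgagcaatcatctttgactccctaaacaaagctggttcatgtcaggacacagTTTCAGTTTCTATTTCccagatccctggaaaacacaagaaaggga
Tgtp2, chr11:49064223-49064342, minus strand: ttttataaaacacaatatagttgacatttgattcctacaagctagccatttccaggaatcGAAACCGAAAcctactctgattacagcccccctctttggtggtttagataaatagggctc
Isg15, chr4:156200825-156200944, minus strand: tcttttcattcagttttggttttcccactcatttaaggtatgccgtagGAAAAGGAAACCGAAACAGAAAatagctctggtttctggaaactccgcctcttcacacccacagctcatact
Ifit1, chr19:34640744-34640863, plus strand: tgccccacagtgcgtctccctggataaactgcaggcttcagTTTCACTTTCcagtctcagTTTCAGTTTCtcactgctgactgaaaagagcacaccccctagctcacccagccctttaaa
Rsad2, chr12:26456513-26456632, minus strand: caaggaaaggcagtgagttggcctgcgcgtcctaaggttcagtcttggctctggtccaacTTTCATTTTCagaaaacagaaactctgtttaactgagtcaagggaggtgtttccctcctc

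The match stood 59 bases before the start in Gbp2 and 70 in Tgtp2, and Gbp3 and Ifit1 had 2 matches and Isg15 3 that overlap. In windows from 250 bases before to 50 after a start, 1079 of 27025 genes with a promoter entry (3.99%) held a match. Of the genes for interferon-induced GTPases and chemokines, 15 had an entry and 10 of these (66.7%) a match. For the antiviral effectors it was 14 of 37 (37.8%), and for class I antigen processing 5 of 22 (22.7%). Among antiviral effectors 10 of 14 tested genes with a match rose and 11 of 22 without one. For GTPases and chemokines it was 9 of 10 and 4 of 5, and for class I antigen processing 2 of 4 and 8 of 17. A match describes the letters only, and no match says only that these letters are not in the window.

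Of the 25 genes for GTPases and chemokines typical of interferon gamma, 19 rose and 6 did not pass, and 18 were higher than in the cholangiocyte condition. For 19 of the 25, against 9.57% of all genes, the hepatocyte condition lay above every undifferentiated array. The median was 3.68, and 2.51, 3.97 and 4.36 within the shared slides. Their mean level was between -3.11 and -2.80 in undifferentiated cells and at 1.19, -0.17, 0.73 and 0.61 in the hepatocyte condition, with array 2 the lowest. Leaving out any 1 array left 19 or 20 of them higher.

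Gbp3, a guanylate-binding protein that attacks the vacuoles of intracellular pathogens, was at -6.01, -5.97, -5.89 and -5.56 in undifferentiated cells and at 2.16, 0.55, 1.87 and 1.98 in the hepatocyte condition. The undifferentiated arrays lay within less than 1 log2 unit and the groups were far apart. The rise was 7.50 ± 0.35 (adjusted p = 2.14e-08). The cholangiocyte condition lay between them, 2.19 above undifferentiated cells (adjusted p = 0.0114), and the hepatocyte condition was higher than it by 5.30 ± 0.38. Gbp2 followed the same order, with 7.6 ± 0.42 (adjusted p = 1.57e-07) against undifferentiated cells and 5.31 ± 0.45 against the cholangiocyte condition. Gbp4 rose by 6.14 ± 0.71 (adjusted p = 9.3e-05).

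Tgtp2, an immunity-related GTPase with a near-identical copy, was at -0.30, 0.58, 0.21 and 0.00 in undifferentiated cells and at 6.45, 5.42, 5.69 and 6.31 in the hepatocyte condition. The rise was 5.84 ± 0.36 (adjusted p = 3.53e-07), and the cholangiocyte condition was between -1.71 and -1.02, on the far side of undifferentiated cells. Igtp and Irgm2 of the same family rose by 3.02 ± 0.29 and 2.95 ± 0.27 (adjusted p = 2.04e-05 and 1.5e-05). Irgm1, the third regulator of the family, overlapped between the groups and differed by 0.36 ± 0.28 (adjusted p = 0.467). Gm4951, another GTPase gene, rose by 7.95 ± 0.50 (adjusted p = 4.06e-07). Its level was between 1.65 and 3.66 in the hepatocyte condition and 4.80 ± 0.21 (SD, n = 4) in primary hepatocytes.

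Of the 3 chemokine genes of the list, ligands of the receptor CXCR3, Cxcl11 did not pass. Cxcl9 rose by 4.13 ± 0.61 (adjusted p = 0.000575) and Cxcl10 by 4.11 ± 0.43 (adjusted p = 4.58e-05). Cxcl10 was not set apart from the cholangiocyte condition, where the difference was 1.11 ± 0.46 (adjusted p = 0.131). That culture was itself 2.99 above undifferentiated cells (adjusted p = 0.00595), a comparison that shares the undifferentiated arrays.

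Of 48 antiviral effectors 29 rose and 19 did not pass, and 32 were higher than in the cholangiocyte condition. The median was 1.79, and 1.61, 1.82 and 1.81 within the shared slides. Isg15, a ubiquitin-like modifier, was at -1.13, 0.15, 1.27 and -1.05 in undifferentiated cells and at 3.25, 2.59, 3.51 and 3.24 in the hepatocyte condition. The undifferentiated arrays were spread, array 3 being the highest, and stayed below the others. The rise was 3.34 ± 0.52 (adjusted p = 0.000883). Oas2, which makes the activator of RNase L, was between -6.79 and -4.95 in undifferentiated cells and between 0.85 and 1.68 in the hepatocyte condition.

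Bst2 and Mx1 were among those that did not pass. Bst2, which tethers virus particles, was at 3.28, 3.29, 3.04 and 2.66 there and at 2.76, 2.37, 3.22 and 3.10 in the hepatocyte condition (-0.20 ± 0.29, adjusted p = 0.729). Mx1, an antiviral GTPase, was at -4.84, -7.93, -9.43 and -9.19 in undifferentiated cells and between -6.90 and -3.70 in the hepatocyte condition (2.23 ± 1.03, adjusted p = 0.178). Without undifferentiated array 1, the highest of its group, its adjusted p was 0.0302.

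Of 32 genes for nucleic acid sensors and interferon signalling 12 rose (7 with median scaling) and 18 did not pass. The 2 that fell were the interferon gamma receptor chain genes Ifngr1 and Ifngr2, by 0.69 ± 0.19 and 0.69 ± 0.20 (adjusted p = 0.0243 and 0.0335). The count of 2 was 0 in a fit of the compared groups alone and without undifferentiated array 2 or 3 or array 1 or 3 of the hepatocyte condition, and 1 with slide as a block and without undifferentiated array 1 or array 4 of the hepatocyte condition. Against the cholangiocyte condition 13 of the 32 were higher and 3 lower. Zbp1, a sensor of Z-form nucleic acids, rose by 6.16 ± 0.42 (adjusted p = 8.28e-07). Irf7 rose by 3.92 ± 0.43 (adjusted p = 5.92e-05) and Irf9, the DNA-binding partner of STAT2, by 1.85 ± 0.21 (adjusted p = 7.94e-05). Irf9 was at 0.23, 0.18, 0.33 and 0.26 in undifferentiated cells and at 1.90, 2.28, 1.86 and 2.35 in the hepatocyte condition, with little spread in either. Stat2 did not pass against undifferentiated cells (0.62 ± 0.31, adjusted p = 0.218). It was higher than in the cholangiocyte condition by 2.51 ± 0.34 (adjusted p = 0.000277), and that condition was 1.89 below undifferentiated cells (adjusted p = 0.0131). The type I interferon receptor chains did not pass, Ifnar1 with 0.51 ± 0.23 (adjusted p = 0.165) and Ifnar2 with 0.46 ± 0.20 (adjusted p = 0.142), although all 4 arrays of the hepatocyte condition were the higher for both.

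Of 28 genes of class I antigen processing, 14 rose, against 7.62% of all genes, and 14 did not pass, with a median of 0.90. Against the cholangiocyte condition 6 of the 28 were higher and 1 lower, where 6.97% and 8.41% of all genes were. The immunoproteasome subunits rose, Psmb8 by 3.68 ± 0.42, Psmb9 by 3.44 ± 0.40 and Psmb10 by 1.34 ± 0.20 (adjusted p = 9.18e-05, 9.29e-05 and 0.000547). Psmb9 was at -3.29, -1.28, -2.93 and -3.38 in undifferentiated cells and at 1.28, 0.31, 0.48 and 0.82 in the hepatocyte condition, and its groups did not overlap. Tap2, a subunit of the peptide transporter, rose by 2.15 ± 0.52 (adjusted p = 0.0124). The presenting molecules named did not pass: B2m differed by 0.13 ± 0.20 (adjusted p = 0.758) and H2-K1 by 0.79 ± 0.44 (adjusted p = 0.278).

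The plot of 22 lists gives each tested member of the groups described here and below.

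**Figure D2:**
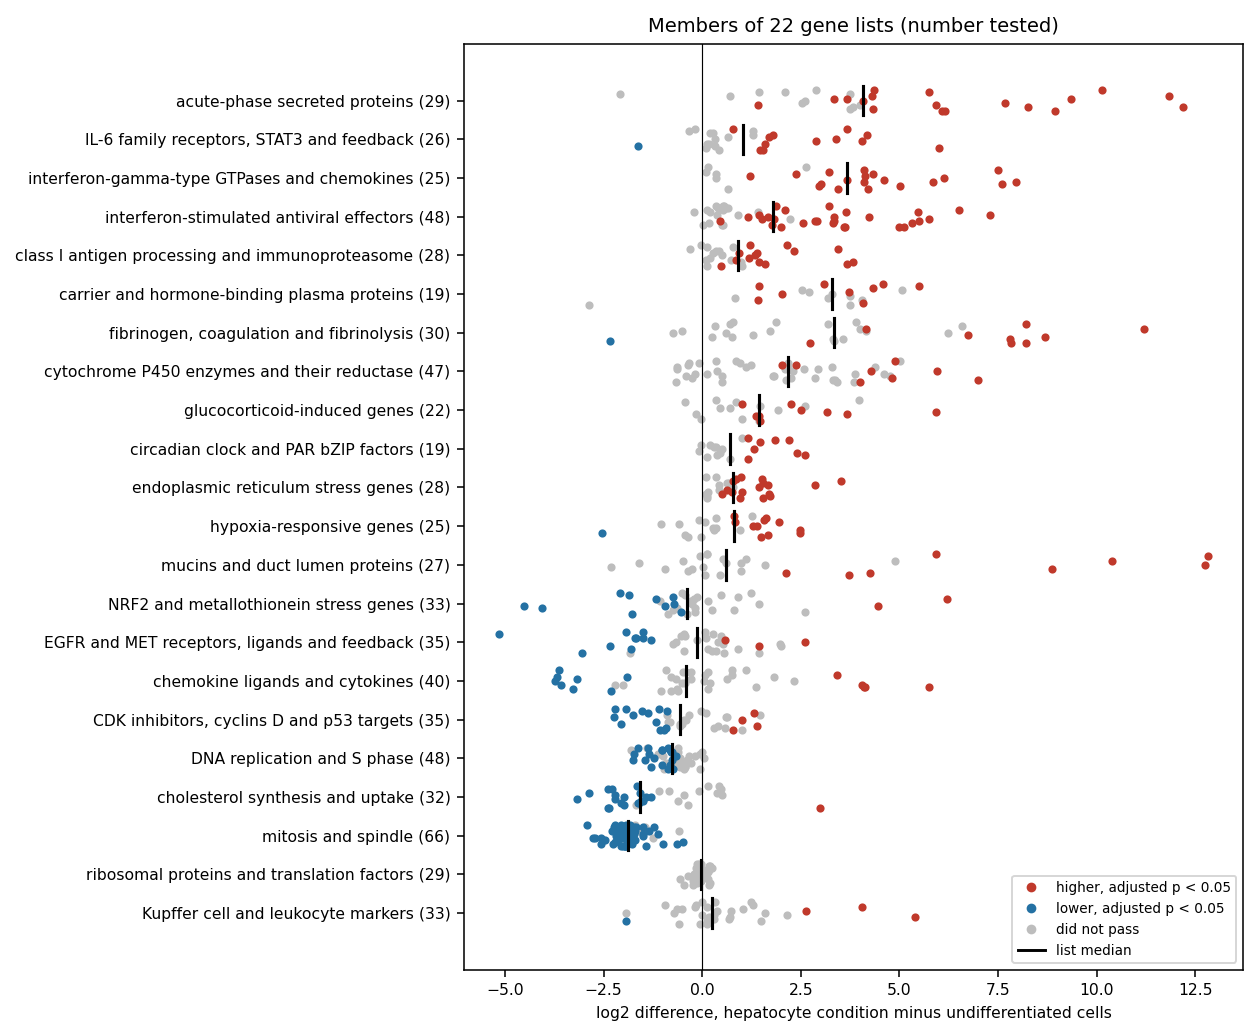
Log2 differences, hepatocyte condition minus undifferentiated cells (x axis), of the tested members of 22 gene lists (y axis, number tested in brackets). Each point is 1 gene, red where it rose and blue where it fell at adjusted p under 0.05, grey where it did not pass, and the black bar is the list median. The median is 3.68 for interferon gamma-type GTPases, -1.88 for mitosis and -0.02 for ribosomal proteins.

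Plasma protein genes split into those that were even over the arrays of the hepatocyte condition and those that were not. Fgb, the fibrinogen beta chain, was at 8.47, 8.42, 8.69 and 8.18 there, and C3, the central complement protein, at 8.28, 8.27, 8.41 and 8.43. In undifferentiated cells Fgb was at 4.24, 1.81, -0.83 and -4.35 and C3 at 5.78, 3.04, 3.46 and 3.54. Undifferentiated cells were thus far more spread in Fgb than the hepatocyte condition. Fgb rose by 8.22 ± 1.37 (adjusted p = 0.00129) and C3 by 4.39 ± 0.69 (adjusted p = 0.000922).

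Other even members were inhibitors of cascades. Serpina10, the protein Z-dependent inhibitor of factor Xa, stood between 3.46 and 4.80 on the 4 arrays, and Pros1, protein S, between 2.88 and 3.21. Pros1 rose by 2.73 ± 0.32 (adjusted p = 9.34e-05). Serping1, the C1 inhibitor, rose by 5.87 ± 0.45 (adjusted p = 3.11e-06).

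Graded members were high on arrays 1 and 3 of the hepatocyte condition and low on arrays 2 and 4. Alb was at 7.62, -4.76, 7.58 and -3.65, and in undifferentiated cells at 6.00, 1.26, -4.44 and -8.74. Igfbp1, an insulin-like growth factor binding protein, was at 5.69, -7.01, 7.01 and -6.88, against 0.59, -1.65, -9.73 and -9.63. Undifferentiated array 1 thus exceeded arrays 2 and 4 of the hepatocyte condition in both. Neither gene passed (Alb 3.18 ± 3.24, adjusted p = 0.601; Igfbp1 4.80 ± 3.11, adjusted p = 0.361).

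Plg, the zymogen of plasmin, was well above background on 2 of the 4 arrays, at 1.18, -7.55, 4.18 and -9.35, and on no undifferentiated array. It did not pass (adjusted p = 0.0559), but did without array 2 (adjusted p = 0.0271) or 4 (0.00864) of the hepatocyte condition. F12, coagulation factor XII, had the same form at 0.55, -7.54, 1.44 and -7.32 (adjusted p = 0.138, and 0.0452 and 0.0489 without arrays 2 and 4). Abcb11, the bile salt export pump, was at 0.47, -8.29, -0.45 and -7.87 (4.90 ± 1.58, adjusted p = 0.0508, and 0.0131 and 0.017 without these arrays). Plg and Abcb11 also passed with a trend in eBayes (adjusted p = 0.0401 and 0.0364) and in the authors' deposited table. With a filter on every array of a group both passed too (adjusted p = 0.0478 and 0.0432). For the 3 genes arrays 2 and 4 stayed within or near the undifferentiated range.

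The same arrays stood low over whole lists of liver genes. The mean level of 19 carrier and hormone-binding proteins was 4.32, 1.31, 4.79 and 0.20 in the hepatocyte condition and 1.80, 0.54, -1.10 and -2.51 in undifferentiated cells. For 30 coagulation genes it was 1.97, -1.29, 2.63 and -1.70, against -1.45, -2.54, -4.06 and -4.82. The lowest arrays of the hepatocyte condition thus fell within the undifferentiated range for carriers and near its top for coagulation. Undifferentiated arrays were graded too, with array 1 the highest and array 4 the lowest in both lists. The median range of a carrier gene over the arrays was 4.64 in undifferentiated cells and 4.48 in the hepatocyte condition. Over all genes it was 0.92 and 0.84. Of the carriers 9 rose (5 or 4 without undifferentiated array 3 or 4, 4 without array 1 or 3 of the hepatocyte condition, 4 with slide as a block and 5 in a fit of the compared groups alone), and within the shared slides the medians were 1.35, -0.20 and 4.70. Of the coagulation genes 9 rose (14 without array 2 and 16 without array 4 of the hepatocyte condition) and 1 fell, Plau (0 without undifferentiated array 3 or 4 or array 1 or 2 of the hepatocyte condition, with slide as a block, with normexp and in a fit of the compared groups alone), with medians of 0.30, -0.42 and 7.2 within slides. The slide of the negative medians held array 4 of the hepatocyte condition and undifferentiated array 1. In both lists these were the lowest and the highest of their groups, so a median within a slide includes this grading. What set arrays 2 and 4 of the hepatocyte condition apart was not tested.

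Some members that rose on all 4 arrays still had this order. Kng1, kininogen, was at 7.26, 4.79, 7.97 and 2.90 (7.80 ± 1.38, adjusted p = 0.00187), and Pzp, an alpha-2-macroglobulin relative, at 4.08, 2.67, 4.84 and 0.52 (7.31 ± 0.84, adjusted p = 9.34e-05). Ambp, the precursor of bikunin, rose by 4.58 ± 0.75 (adjusted p = 0.00119). Itih2, a heavy chain that bikunin binds, rose by 2.66 ± 0.53 (adjusted p = 0.00393) and stood 6.48 ± 0.57 above the cholangiocyte condition, which was itself 3.82 below undifferentiated cells on the log2 scale (adjusted p = 0.00439 for a difference of -3.82).

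The plot of list means shows the even and the graded lists side by side.

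**Figure D3:**
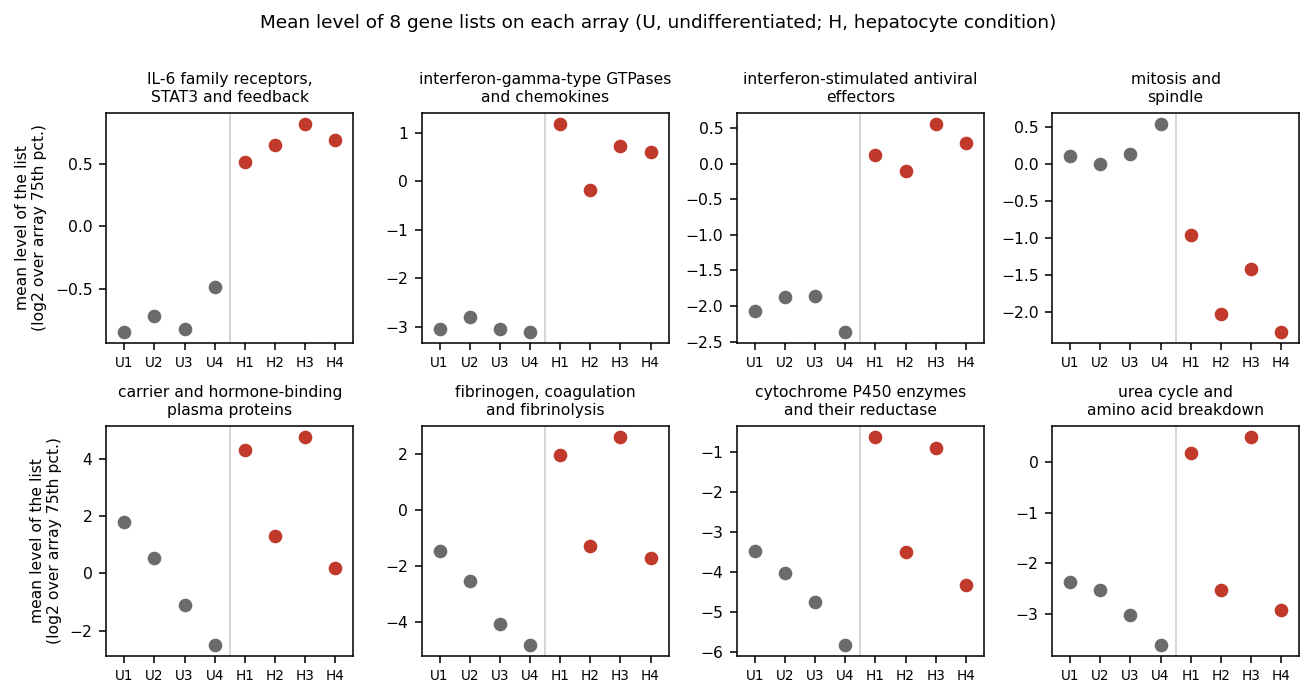
Mean level (y axis, log2 relative to each array's 75th percentile) of the tested genes of 8 lists on undifferentiated arrays U1 to U4 and hepatocyte-condition arrays H1 to H4. In the upper row the groups do not overlap and the hepatocyte condition lies above, or for mitosis below, every undifferentiated array. In the lower row H1 and H3 lie above H2 and H4, and for carriers H2 and H4, at 1.31 and 0.20, lie within the undifferentiated range.

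Enzymes of drug and amino acid metabolism followed the graded form. Of 47 cytochrome P450 genes and their reductase 8 rose (15 and 16 without arrays 2 and 4 of the hepatocyte condition, 5 in a fit of the compared groups alone), with a median of 2.17 and medians of 0.11, -0.44 and 3.93 within slides. Of 51 genes of the urea cycle and amino acid breakdown 7 rose (16 and 17 without these arrays). Of all genes 7.62% rose. The median of the 51 was 1.78, and -0.2, -0.43 and 2.37 within slides. Cyp3a11, the main drug-oxidising P450, was at 2.68, -5.43, -0.33 and -5.76 and did not pass (adjusted p = 0.129, and 0.0483 and 0.0352 without arrays 2 and 4). Cyp3a13 was even, at 2.53, 2.78, 3.29 and 1.71 against -0.25 to 1.25 in undifferentiated cells, and rose by 2.02 ± 0.38 (adjusted p = 0.00278). Pck1, the gate of gluconeogenesis, was at 0.55, -9.18, 0.61 and -8.19 (3.97 ± 1.91, adjusted p = 0.198).

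Some of the genes that glucocorticoid hormones induce rose, and more of them were higher than in the cholangiocyte condition. Of 22 tested 9 rose and 13 did not pass, with a median of 1.44, and 0.96, 1.44 and 1.5 within slides. Against the cholangiocyte condition 13 were higher and 1 lower. Zbtb16, a zinc finger gene strongly induced by glucocorticoids, was at 0.28, -1.39, 0.15 and -2.19 in undifferentiated cells, at 2.08, 2.64, 2.32 and 2.50 in the hepatocyte condition and at -5.35, -5.62 and -5.03 in the cholangiocyte condition. The 3 groups did not overlap. The rise was 3.17 ± 0.45 (adjusted p = 0.000463), and the difference from the cholangiocyte condition was 7.72 ± 0.49 (adjusted p = 7.06e-07).

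Fkbp5, a chaperone that restrains the glucocorticoid receptor, was high in both groups, at 4.31, 3.98, 4.22 and 3.55 in undifferentiated cells and at 4.45, 5.25, 4.63 and 5.21 in the hepatocyte condition. It did not pass between them (0.87 ± 0.40, adjusted p = 0.172). It was between 0.15 and 1.63 in the cholangiocyte condition, which the hepatocyte condition exceeded by 4.05 ± 0.43 (adjusted p = 5.07e-05). Per1, a clock gene that the receptor also induces, had the same order, with 0.46 ± 0.31 (adjusted p = 0.381) against undifferentiated cells and 1.95 ± 0.33 (adjusted p = 0.00153) against the cholangiocyte condition. Tsc22d3, known as GILZ, rose by 2.24 ± 0.48 (adjusted p = 0.00598). Klf9 rose by 1.02 ± 0.24 (adjusted p = 0.00986), a call that was lost with median scaling (adjusted p = 0.138).

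Of 19 clock genes 8 rose and 11 did not pass, 5 with median scaling, and the list median was 0.71. Rora, a nuclear receptor that drives the clock gene Arntl, rose by 2.61 ± 0.32 (adjusted p = 0.000147). Cry2, a clock repressor, rose by 1.84 ± 0.20 (adjusted p = 5.11e-05) and Bhlhe41, another, by 2.41 ± 0.50 (adjusted p = 0.00504). Rora was at -2.42, -2.89, -3.86 and -2.93 in undifferentiated cells and at -0.65, -0.54, -0.62 and 0.13 in the hepatocyte condition, and its groups did not overlap. Of 36 nuclear receptor genes 10 rose, 6 in a fit of the compared groups alone. Vdr, the vitamin D receptor, rose by 2.95 ± 0.59 (adjusted p = 0.00419) to between -2.92 and -0.58, while primary hepatocytes were at -7.42 ± 1.03 (SD, n = 4).

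Many genes of the endoplasmic reticulum stress response rose. Of 28 tested 17 rose and 11 did not pass, with a median of 0.79 and 1.06, 0.72 and 0.65 within slides. The count was 8 with median scaling, 11 with slide as a block, 11 without undifferentiated array 1, 10 without undifferentiated array 2 and 11 without array 2 of the hepatocyte condition. Xbp1, the factor that expands the secretory apparatus, was at 4.03, 4.12, 3.95 and 3.97 in undifferentiated cells and at 6.10, 6.05, 5.57 and 5.10 in the hepatocyte condition. The undifferentiated arrays were almost the same, and the rise was 1.69 ± 0.22 (adjusted p = 0.000278), against a level of 6.09 ± 0.28 (SD, n = 4) of primary hepatocytes. Derl3 and Herpud1, of the degradation of misfolded proteins, rose by 3.52 ± 0.57 and 1.66 ± 0.29 (adjusted p = 0.00108 and 0.0019). Dnajb9 and Creld2, chaperone genes, rose by 1.53 ± 0.22 and 1.45 ± 0.27 (adjusted p = 0.000551 and 0.0025). Trib3, a pseudokinase of the amino acid response, rose by 2.87 ± 0.58 (adjusted p = 0.00445). Hspa5, the chaperone BiP, rose by 0.87 ± 0.19 (adjusted p = 0.00754) but not with median scaling (adjusted p = 0.139).

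Most mitosis genes fell. Of 66 tested 60 fell, against 7.7% of all genes, and 6 did not pass, with a median of -1.88. Of the 66, 62 were lower than in the cholangiocyte condition, where 8.41% of all genes were. For 64 the hepatocyte condition lay below every undifferentiated array, as for 11.4% of all genes. Leaving out single arrays left between 48 and 61 lower, and the medians within the shared slides were -2.09, -2.38 and -1.07. The list's mean level was 0.10, -0.01, 0.13 and 0.54 in undifferentiated cells and -0.97, -2.03, -1.42 and -2.28 in the hepatocyte condition. Arrays 2 and 4, which were the lowest in the graded liver genes, were also the lowest in mitosis genes. Primary hepatocytes were at -4.37, so that the mean in the hepatocyte condition lay between progenitors and mature cells.

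The cyclin B2 gene, the ubiquitin-conjugating enzyme gene Ube2c and Cdk1 are shown with stretches of 120 bases from the same RefSeq table and build. They end at the start in Ube2c and Cdk1 and 107 bases before it in Ccnb2. Capitals mark matches to TTTGAA on either strand, the letters of the cell cycle homology region that the DREAM and FOXM1-MuvB complexes bind.
Ccnb2, chr9:70421662-70421781, minus strand: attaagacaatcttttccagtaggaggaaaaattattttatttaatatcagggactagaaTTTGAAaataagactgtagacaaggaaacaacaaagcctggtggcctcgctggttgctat
Ube2c, chr2:164769809-164769928, plus strand: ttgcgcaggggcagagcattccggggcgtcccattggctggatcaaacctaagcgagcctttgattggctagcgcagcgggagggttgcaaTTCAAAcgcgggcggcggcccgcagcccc
Cdk1, chr10:69352913-69353032, minus strand: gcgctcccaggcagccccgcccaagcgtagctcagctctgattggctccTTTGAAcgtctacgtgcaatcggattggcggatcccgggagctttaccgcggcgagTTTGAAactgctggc

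Of 55 mitosis genes with a promoter entry, 38 (69.1%) held TTTGAA in the window of 250 bases before to 50 after a start, and 41 (74.5%) held CCAAT, the letters of the NF-Y box. Over all 27025 genes the shares were 20.2% and 41.1%. Of 40 genes of DNA replication, 7 (17.5%) held TTTGAA and 24 (60%) CCAAT. Among tested mitosis genes 35 of 37 with TTTGAA fell, and 15 of 17 without it. With CCAAT 40 of 40 fell, and 10 of 14 without it. Among replication genes 3 of 7 with TTTGAA fell and 13 of 33 without it. For CCAAT it was 10 of 24 and 6 of 16.

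Bub1, a kinase of the spindle checkpoint, was at 0.41, -0.23, -0.45 and 0.04 in undifferentiated cells and at -1.94, -3.59, -2.77 and -3.63 in the hepatocyte condition. Cdk1, the kinase that starts mitosis, was at 1.91, 1.80, 2.07 and 2.26 against 1.01, -0.25, 0.98 and -0.47. The groups did not overlap in either gene, and arrays 2 and 4 of the hepatocyte condition were the lowest in both. Cdk1 fell by 1.69 ± 0.39 on the log2 scale (adjusted p = 0.00992), Cdc25c, the phosphatase that activates it, by 2.28 ± 0.37 (adjusted p = 0.00105), and Kif20a, a kinesin of cell division, by 1.96 ± 0.42 (adjusted p = 0.00649). Foxm1, whose product drives many of these genes, fell by 1.51 ± 0.30 (adjusted p = 0.00376).

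Mki67, the proliferation marker Ki-67, passed less firmly, with -1.90 ± 0.59 (adjusted p = 0.0432). Its call was lost without any 1 of the undifferentiated arrays 1 to 4 (adjusted p = 0.0767, 0.0657, 0.0726 and 0.109) and without arrays 2, 3 or 4 of the hepatocyte condition (0.108, 0.0766 and 0.106). Aurkb, a kinase of chromosome alignment, did not pass (-1.59 ± 0.92, adjusted p = 0.297). It was at -4.41, -6.80, -4.38 and -7.30 in the hepatocyte condition and overlapped undifferentiated cells.

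Of 48 tested genes of DNA replication 20 fell and 28 did not pass, with a median of -0.76, while 37 were lower than in the cholangiocyte condition. The count of 20 was 9 in a fit of the compared groups alone, 11 with slide as a block and 13 without undifferentiated array 4 or without array 2 or 4 of the hepatocyte condition. Cdt1, which loads the replicative helicase, fell by 1.03 ± 0.24 (adjusted p = 0.00966). Mcm7, a helicase subunit, fell by 1.02 ± 0.25 (adjusted p = 0.0136, and 0.0556 in the fit of the compared groups alone). Pcna, the sliding clamp, was at 3.5, 3.22, 2.98 and 2.94 in the hepatocyte condition against 3.78, 3.35, 3.69 and 4.04 (-0.55 ± 0.19, adjusted p = 0.0684). It passed without undifferentiated array 2 (adjusted p = 0.0399) or array 1 of the hepatocyte condition (0.0421). Against the cholangiocyte condition Pcna was lower by -1.13 ± 0.21 as a difference (adjusted p = 0.00223).

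Genes for G1 kinases and for some of their inhibitors fell together. Of 35 genes for CDK inhibitors, D-type cyclins and p53 targets, 13 fell and 4 rose (Cdkn1b, Cdkn2d, Rbl2 and Gadd45a). The 4 became 2 with median scaling, with slide as a block and without any 1 of the undifferentiated arrays 1 to 4 or of arrays 2 and 4 of the hepatocyte condition, and 1 without its array 3. Ccnd1, cyclin D1, was at 6.36, 6.83, 6.32 and 6.78 in undifferentiated cells and at 4.98, 3.79, 4.66 and 5.13 in the hepatocyte condition. It fell by 1.93 ± 0.42 (adjusted p = 0.00662), and its kinase partners Cdk4 and Cdk6 by 0.92 ± 0.19 and 1.37 ± 0.24 (adjusted p = 0.00574 and 0.00156).

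Of the inhibitors of these kinases, Cdkn2a and Cdkn2b fell. Cdkn2b, which encodes p15, was at 3.40, 3.75, 3.85 and 3.79 in undifferentiated cells and at 1.71, 1.43, 1.71 and 1.15 in the hepatocyte condition. It fell by 2.20 ± 0.20 (adjusted p = 1.55e-05), and Cdkn2a, its neighbour, which encodes p16 and p19 ARF, by 2.05 ± 0.42 (adjusted p = 0.00461). In primary hepatocytes both were lower still, at -4.30 ± 0.35 and -7.90 ± 0.37 (SD, n = 4). Cdkn2d, which encodes p19, another inhibitor of the same kinases, rose by 1.40 ± 0.17 (adjusted p = 0.000161) to between 2.22 and 2.79. Trp53 and Mdm2, the gene of its ubiquitin ligase, fell by 0.98 ± 0.23 and 1.76 ± 0.30 (adjusted p = 0.0115 and 0.00157). Cdkn1a, which encodes p21, did not pass (-0.82 ± 0.33, adjusted p = 0.121), but did with normexp background correction (adjusted p = 0.0299) and with the mean of its probes (0.0213).

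Of 40 chemokine and cytokine genes 8 fell and 5 rose (Ccl8, Cxcl9, Cxcl10, Il6 and Tnfsf10). Ccl2, a monocyte attractant, was at 6.25, 6.91, 7.56 and 7.11 in undifferentiated cells and at 3.87, 4.28, 2.66 and 2.73 in the hepatocyte condition. It fell by 3.57 ± 0.54 (adjusted p = 0.000675). Ccl7, encoded beside it, fell by 3.28 ± 0.49 (adjusted p = 0.000658) and was 3.5 higher in the cholangiocyte condition than in undifferentiated cells (adjusted p = 0.00495). The direct difference between the cultures was -6.78 ± 0.53 (adjusted p = 4.56e-06), and no array of the 3 groups overlapped with another group.

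The neutrophil attractants Cxcl3 and Cxcl5 fell by 3.63 ± 0.41 and 3.17 ± 0.71 (adjusted p = 8.3e-05 and 0.00781). Csf2, the growth factor GM-CSF, was well above background on every undifferentiated array and on none of the hepatocyte condition, at least 6.79-fold lower (adjusted p = 0.00209, and 0.316 with normexp). Without undifferentiated array 4, the highest of its group, the bound was 4.34-fold. Ptgs2, the inducible cyclooxygenase that makes the precursor of prostaglandin E2, fell by 3.65 ± 0.55 (adjusted p = 0.000659) from between 0.66 and 2.56 to between -3.60 and -1.45. Nfkbia, the feedback inhibitor of NF-kB, differed by -0.15 ± 0.28 (adjusted p = 0.796) and was lower than in the cholangiocyte condition by -1.51 ± 0.30 as a difference (adjusted p = 0.00398).

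Some ligands and targets of the EGF receptor pathway fell, while the receptor did not pass. Of 35 genes 10 fell and 3 rose (Errfi1, Egr1 and Rasa1), against 7.7% and 7.62% of all genes. The 3 became 1 with median scaling and without undifferentiated array 2 or array 2 of the hepatocyte condition, and 5 with array weights. Areg, the ligand amphiregulin, was at 1.5, 1.77, 1.88 and 1.05 in undifferentiated cells and at -0.96, -2.43, -0.73 and -1.91 in the hepatocyte condition. It fell by 3.05 ± 0.49 (adjusted p = 0.0011) and was lower than in the cholangiocyte condition too (-4.11 ± 0.53, adjusted p = 0.000222). Dusp4 and Dusp6, phosphatases that ERK induces, fell by 2.33 ± 0.31 and 1.29 ± 0.25 (adjusted p = 0.000283 and 0.00317). Etv4 and Fosl1, transcription factor genes downstream of ERK, fell by 1.94 ± 0.29 and 1.81 ± 0.40 (adjusted p = 0.000658 and 0.00779). Egfr differed by 0.28 ± 0.40 (adjusted p = 0.731). Flrt3, an adhesion protein, fell by 3.47 ± 0.27 (adjusted p = 3.25e-06) and had no overlap between groups.

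Matrix proteases moved in both directions. Mmp10 and Mmp13, a stromelysin and a collagenase, fell by 5.05 ± 0.81 and 5.54 ± 0.99 (adjusted p = 0.00103 and 0.00206). Mmp7, matrilysin, was at 2.47, 3.39, -0.16 and -0.17 in the hepatocyte condition, above every undifferentiated array, and rose by 5.19 ± 0.78 (adjusted p = 0.000688). Timp1, the inhibitor that IL-6 family cytokines induce, rose by 2.49 ± 0.27 (adjusted p = 5.11e-05) to between 5.09 and 5.81. Primary hepatocytes were at -7.81 ± 0.52 (SD, n = 4) for Timp1.

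Many cholesterol synthesis genes fell. Of 32 genes of synthesis and uptake 19 fell and Acat2 rose, with a median of -1.57 and -1.74, -2.54 and -1.55 within slides. Against the cholangiocyte condition 2 were lower and 2 higher, near the 8.41% and 6.97% of all genes. Undifferentiated cells were at 2.25, 1.63, 1.82 and 0.51 in mean level, with array 4 the lowest, the hepatocyte condition at 0.60, 0.07, 0.77 and -0.03 and the cholangiocyte condition at 0.50.

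Sqle, squalene epoxidase, was at 4.22, 3.40, 3.65 and 2.38 in undifferentiated cells and at 2.18, 1.42, 2.12 and 1.5 in the hepatocyte condition, and its groups did not overlap. It fell by 1.6 ± 0.35 (adjusted p = 0.00715), and the difference from the cholangiocyte condition was -0.67 ± 0.38 (adjusted p = 0.29). Sc5d, which acts late in the pathway, fell by 1.5 ± 0.31 (adjusted p = 0.00521), and Hmgcs1, at its start, by 1.98 ± 0.51 (adjusted p = 0.0163). Srebf2, whose product drives the pathway, fell by 1.31 ± 0.22 (adjusted p = 0.0012), and it was also lower than in the cholangiocyte condition (-1.14 ± 0.23, adjusted p = 0.00472). Abca1, which exports cholesterol to apolipoprotein A1, moved the other way. It was at -1.82, -4.76, -4.59 and -4.47 in undifferentiated cells and at 1.07, 0.88, 1.35 and 0.73 in the hepatocyte condition, a rise of 4.91 ± 0.77 (adjusted p = 0.000936).

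The plot of both differences sets these genes side by side for the undifferentiated cells and the other culture.

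**Figure D4:**
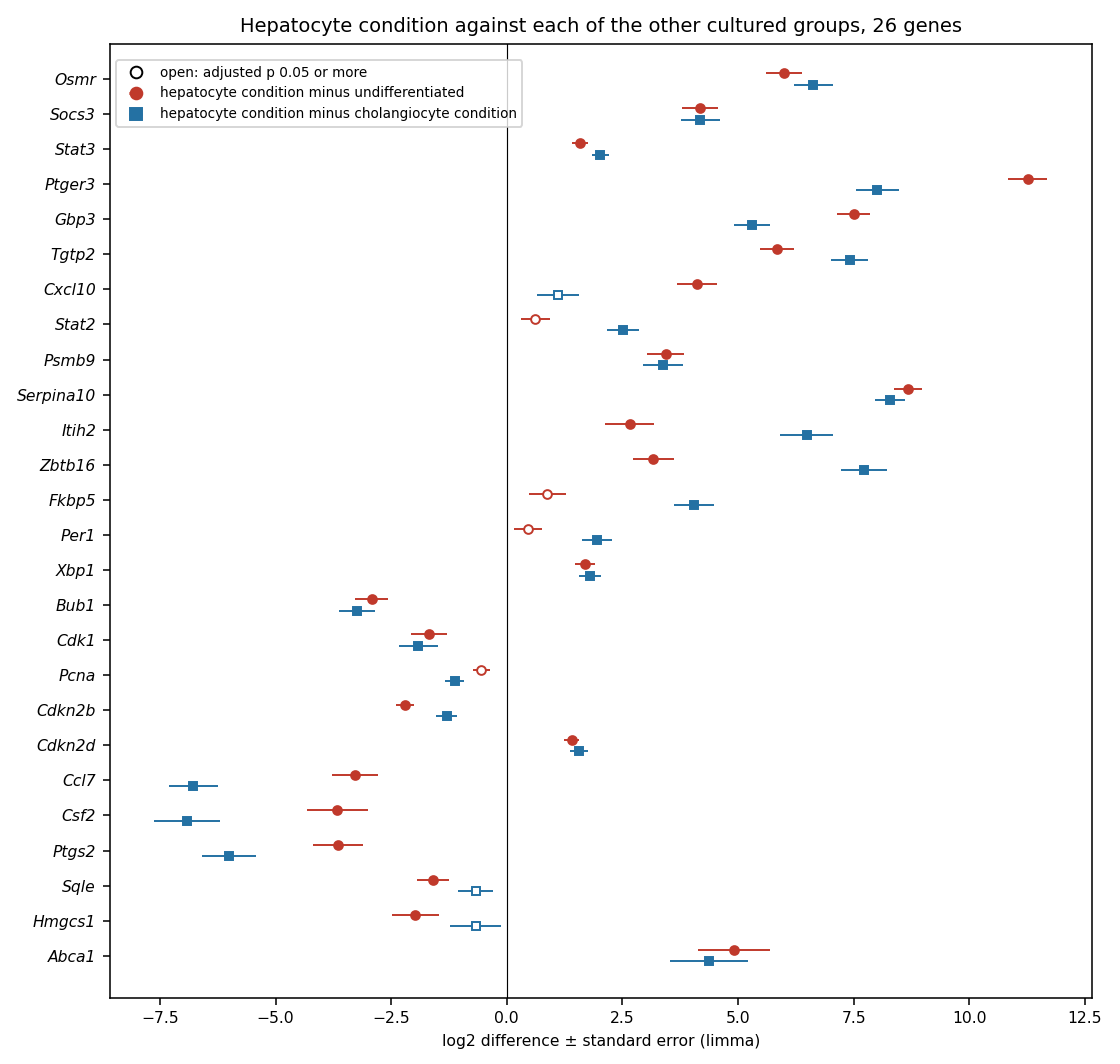
Log2 differences with standard errors (x axis) of 26 genes, hepatocyte condition minus undifferentiated cells (red circles) and minus the cholangiocyte condition (blue squares); open marks did not pass at adjusted p under 0.05. Both differences share the 4 arrays of the hepatocyte condition. Fkbp5 (0.87 and 4.05) and Stat2 (0.62 and 2.51) differ from the cholangiocyte condition only, and Sqle (-1.6 and -0.67) from undifferentiated cells only, at that threshold.

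Stress genes of the NRF2 pathway fell in part and hypoxia-responsive genes rose in part. Of 33 NRF2 and metallothionein genes 10 fell and 2 rose, Gpx3 and Akr1b7, against 7.7% and 7.62% of all genes. The 2 became 1 with slide as a block, without undifferentiated array 3 and without array 1 or 4 of the hepatocyte condition. By the authors' deposited comparisons 4 rose. Nqo1, a quinone reductase, was at -2.86, -3.86, -3.67 and -6.04 in undifferentiated cells and at -9.17, -9.52, -6.30 and -9.47 in the hepatocyte condition, where 1 array was well above background. It fell by 4.51 ± 0.78 (adjusted p = 0.00164). Gsta4, a glutathione transferase counted with the conjugation enzymes, and Txnrd1, thioredoxin reductase, fell by 3.07 ± 0.45 and 0.95 ± 0.18 (adjusted p = 0.00055 and 0.00294). Gclc and Hmox1, other known targets, did not pass (-0.25 ± 0.31 and -0.74 ± 0.40, adjusted p = 0.673 and 0.251).

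Of 25 hypoxia-responsive genes 11 rose, against 7.62% of all genes, 5 with median scaling, and Car9 fell. The median was 0.81, and 1.14, 0.49 and 0.03 within slides. Car9 did not pass without undifferentiated array 1, 3 or 4 or without array 1, 2 or 4 of the hepatocyte condition. Bnip3, of mitochondrial turnover, rose by 2.47 ± 0.41 (adjusted p = 0.00136), Ndrg1 by 2.47 ± 0.50 (adjusted p = 0.00481) and Pgk1, a glycolytic kinase, by 1.5 ± 0.31 (adjusted p = 0.00519). Bnip3 was at 4.28, 3.0, 2.41 and 2.43 in undifferentiated cells and at 5.88, 4.90, 6.13 and 5.09 in the hepatocyte condition. The glucose transporter gene Slc2a1 and the lactate dehydrogenase gene Ldha, known targets of the same factor, differed by 0.06 ± 0.46 and 0.30 ± 0.15 (adjusted p = 0.958 and 0.205).

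Markers of bile ducts and progenitors did not move as one. Krt19, the duct keratin, was at 6.80, 6.41, 7.03 and 5.66 in undifferentiated cells and at 4.36, 5.16, 3.79 and 4.66 in the hepatocyte condition. It fell by 1.98 ± 0.50 (adjusted p = 0.016, and 0.052 without array 3 of the hepatocyte condition). Still, it stayed far above the -7.02 ± 1.13 (SD, n = 4) of primary hepatocytes, where 1 array was well above background. Krt7, Epcam, Sox9 and Spp1 did not pass. Their differences were -0.78 ± 0.33, 1.0 ± 0.72, 0.78 ± 0.55 and 1.11 ± 0.44 (adjusted p = 0.139, 0.424, 0.412 and 0.117). Spp1 passed with normexp (adjusted p = 0.0376). Foxl1 was at -1.55, 1.05, 2.23 and 2.55 and at 0.73, 1.64, -1.99 and 1.46 (adjusted p = 0.835), and Afp, the fetal liver protein, differed by -2.87 ± 1.63 (adjusted p = 0.285).

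Of 27 mucin and duct lumen genes 8 rose and 19 did not pass, with a median of 0.60. Tff3, a trefoil peptide that protects mucosa, was not well above background in undifferentiated cells and was at 2.42, 4.70, 2.79 and 0.40 in the hepatocyte condition, at least 1020-fold higher (adjusted p = 1.5e-05; the bound was 625-fold without array 2 and 1690-fold without array 4 of the hepatocyte condition). Dmbt1, a scavenger protein of duct fluids, was at -4.01, 6.27, 2.81 and 0.16, with array 2 the highest and array 1 the lowest, and rose by 8.88 ± 2.13 (adjusted p = 0.0116). Slc51b, a subunit of the basolateral bile acid exporter, rose by 7.67 ± 0.94 (adjusted p = 0.000135).

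Markers of other cells of the liver were measured beside these groups. The mean level of 33 tested leukocyte and Kupffer cell markers was between -6.07 and -4.86 in undifferentiated cells and between -5.43 and -4.55 in the hepatocyte condition. The ranges overlapped and the median was 0.26. Of the 33, 3 rose and 1 fell (2 without undifferentiated array 3), against 7.62% and 7.7% of all genes. Mpeg1, perforin-2, which macrophages hold and interferons also induce, rose by 5.40 ± 0.50 (adjusted p = 1.67e-05), to between 1.59 and 2.97. Ptprc, the pan-leukocyte CD45, rose by 2.63 ± 0.53 (adjusted p = 0.00464) to between -4.02 and -2.99, and Tyrobp, an adaptor of myeloid receptors, rose at least 4.91-fold (adjusted p = 5.06e-05; 0.0742 with normexp).

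Other macrophage genes were lower or did not pass. Cd68 fell by 1.92 ± 0.33 (adjusted p = 0.00166, and 0.144 with normexp) and Mrc1, the mannose receptor that sinusoidal endothelium also has, by 3.87 ± 0.77 (adjusted p = 0.00426). Adgre1, a macrophage surface receptor gene, differed by 0.13 ± 0.63 (adjusted p = 0.929). Clec4f, which marks Kupffer cells, was well above background on 1 undifferentiated array and on none of the hepatocyte condition. The part of leukocytes in the interferon and chemokine differences was not tested.

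Among stellate cell and fibroblast markers, 5 of 20 rose (Acta2, Dcn, Rgs5, Cygb and Pdpn), 3 without undifferentiated array 1, 2, 3 or 4 and without array 1, 3 or 4 of the hepatocyte condition. The list's mean level was between -6.86 and -5.71 in undifferentiated cells and between -5.42 and -4.31 in the hepatocyte condition. Dcn, the matrix protein decorin, rose by 5.06 ± 0.88 (adjusted p = 0.00167) and Pdpn, podoplanin, by 5.48 ± 1.20 (adjusted p = 0.00681). Col1a1, the main collagen gene of fibroblasts, differed by 0.29 ± 1.15 (adjusted p = 0.917). Of 23 sinusoidal and vascular endothelial markers 2 rose and 2 fell, against 7.62% and 7.7% of all genes. Leaving out single arrays gave between 0 and 2 higher and between 2 and 5 lower. Their mean level was between -5.45 and -4.78 in undifferentiated cells and between -5.81 and -5.16 in the hepatocyte condition. Lyve1, a marker of sinusoidal endothelium, was well above background on none of the 8 arrays. Of 29 ribosomal protein and translation factor genes 0 passed in limma and 2 had an unadjusted p under 0.05, with a median of -0.02.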

How the data were processed

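Total RNA was amplified with the WT-Ovation Pico system and labelled with Cy3, per the labels' protocols. The deposited intensity is the background-subtracted signal that Agilent Feature Extraction gives, version 10.5.1.1 per the file headers and 9.53 per the submitters' processing notes. The authors also deposited a table of comparisons, in which a score per probe is a signed fold change and the false discovery rate is in percent; its normalization is not given in the sources used here, and it served as an alternative only.

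Replicate spots were averaged, 135 probes with outlier spots were left out, and the log2 75th percentile of non-control probes was subtracted from log2 intensity on each array. Probes well above background on at least 2 of 17 arrays were kept (32302), and the probe with the highest mean stood for each of 25975 genes. Group means of all 17 arrays were fitted with limma 3.58.1 in R 4.3.3 (lmFit, eBayes), and p-values were adjusted by Benjamini-Hochberg. Slides were told apart by the array codes of the deposited files, and 1 slide can hold arrays of several groups. A gene that no array of a group shows well above background is given as a bound: the mean of the other group over the higher, per array, of the lowest signal among probes above background and the probe's own. Promoters were matched by gene symbol, and tables and figures made with Python 3.11.15, pandas 2.3.3 and matplotlib 3.10.9. The fit was tested on simulated data.

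The comparison, the 58 lists (1739 genes, 1658 tested) and the named genes were chosen with earlier results of these data known. Named were marker genes, the 15 largest differences each way with groups that do not overlap, the 10 largest bounds each way, and members of the lists; not all are described. Of 24 genes with probes that passed in opposite directions, none is given a value here. Near-identical copies (Reg3b and Reg3g, Tgtp2, Saa2, Serpina3, Gbp) may share a probe's signal. The number of arrays limits the precision. Alternatives were other background corrections, scalings, filters, probe rules, fits, slide and replicate blocks, and leaving out each array.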

Additional observations from a re-analysis of the deposited data

Results flagged for a closer look

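Among 464 groups of 4 arrays examined (173 genes and the list means, in each of both groups), 18 held an array whose gap to the nearest other, as a share of the range, exceeded Dixon's critical value, or 3.88%. Chance flags about 1 in 20 groups, so a pattern over genes or arrays cannot be read from them.

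In undifferentiated cells, array 1 stood above the others for Reg3b (-5.28, the nearest at -8.77), Derl3 (-3.81) and Abca1 (-1.82) and below for Ifnar2 (1.06). Array 2 was the lowest for Cdkn1a (2.47) and the highest for the mean of the Notch pathway list (-2.04). Array 3 was the highest for Cxcl3 (-0.45) and the lowest for Spp1 (3.86). Array 4 was the lowest for Cebpb (3.14) and Irf7 (-5.88) and the highest for Creld2 (3.28) and Csf2 (-2.65).

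In the hepatocyte condition, array 1 was the lowest for Herpud1 (5.07), array 2 the lowest for Gbp2 (3.22) and array 4 the highest for Rora (0.13). Array 3 was the highest for Psmb10 (4.92) and Nqo1 (-6.30) and the lowest for Ptgs2 (-3.60). For the passing genes among these, the calls without each such array were the same.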

How the results depend on the processing

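Of 173 genes followed through 21 settings, 130 passed and 121 of these passed in every setting; 11 of the 43 that did not pass did so in some setting, and of the 130 that passed 0 changed sign. Median scaling gave 1115 genes higher, against 1979. Leaving out single arrays gave between 1553 and 1817 genes higher and between 1493 and 1754 lower than in undifferentiated cells, and between 1259 and 1641 higher and between 1383 and 1874 lower than in the cholangiocyte condition. The lowest count came without cholangiocyte-condition array 1, and 1384 without array 2. The genes of the lists that passed were 532, and between 433 and 524 without single arrays. Of 48 replication genes 20 fell, 9 in a fit of the compared groups alone, 11 with slide as a block and between 13 and 24 without single arrays. Of 28 endoplasmic reticulum stress genes 17 rose, 8 with median scaling, 11 with slide as a block and between 10 and 16 without single arrays. Of 1722 other list counts and settings, 1431 stayed within 1.5 times.

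Array numbers in the labels did not pair all samples: deviations of same-numbered arrays correlated at -0.031, -0.071, -0.148 and 0.519. Arrays 1, 2 and 3 of the hepatocyte condition correlated at 0.442, 0.351 and 0.385 with undifferentiated arrays 2, 3 and 1. All other pairs correlated negatively. Whether arrays that correlated share a source is not in the labels and was not tested, and the main fit took all arrays as unpaired. The replicate block follows the label numbers only. With a replicate block 1837 genes were higher and 1760 lower, and no call of a named gene was lost. The authors' deposited table called 1789 genes higher and 2698 lower, of which 1554 and 1723 were shared with the fit, and 0 in the opposite direction. Mki67 also lost its call with quantile normalization (adjusted p = 0.0651), no filter on dim probes (0.0511), the mean of probes (0.0504) and slide as a block (0.114). The cause of these shifts was not tested. Genes well above background on no array of a group have only a bound, those above it on some arrays have a difference that rests partly on dim signals, and normexp ended the calls of Csf2, Tyrobp and Cd68.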
